A study of Mus musculus with 11 samples.

Results

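Of 110304 nuclei from mouse brain, the deposited metadata name 330 vascular smooth muscle, 0.299% of all, and these nuclei are described here. Membership follows the class name alone, which the authors' annotation gave each nucleus together with a prediction score between 0 and 1. The median score of the 330 nuclei was 0.545, the lowest median of the 10 classes. Marker genes went against the name in most of them: 297 nuclei (90.0%) carried more pericyte than smooth muscle RNA, 23 (6.97%) carried more smooth muscle RNA, and 10 were unresolved. The whole set is therefore called by its deposited name or simply the class, and the sets within it by the genes that lead them.

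Per the labels, the mice carry the human transferrin receptor (TfR) as a homozygous knock-in, while the metadata give the strain as C57BL/6J. The brain region is posterior per the labels and cortex per the metadata. Each of 11 libraries came from 1 mouse that had received 4 weekly intravenous doses, with tissue taken 72 h after the last. ATV:BACE1 (57 mg/kg, n = 3) binds the TfR and carries no antisense oligonucleotide (ASO), and it served as the control. OTV:Malat1 (60 mg/kg, n = 3) is an ASO against the nuclear RNA Malat1 on a TfR-binding carrier, and nonTV:Malat1 (60 mg/kg, n = 3, titled RSV-ASO) has the ASO on a carrier without TfR binding. Malat1 ASO (2.5 mg/kg, n = 2) is the free oligonucleotide. Replicate 1 of each group was a female of 2.33 months, replicate 4 a male of 2.57 months and replicate 5 a male of 2.33 months, and the deposited batch number follows the replicate number, so sex, age and batch cannot be told apart.

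Mural cells wrap the endothelial tube of brain vessels. Vascular smooth muscle cells ring arteries and arterioles, and their contractile proteins, among them smooth muscle actin (Acta2), transgelin (Tagln) and smooth muscle myosin heavy chain (Myh11), set vessel diameter. Pericytes lie along capillaries inside the vascular basement membrane. They carry little contractile protein and are known in brain for the ATP-sensitive potassium channel made of Kir6.1 (Kcnj8) and SUR2 (Abcc9) and for the cation-transporting ATPase Atp13a5. Both cell types depend on the PDGF receptor beta (Pdgfrb) and on Notch3.

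The class was thinly sampled. A library held 11 to 48 of its nuclei and 9494 to 51448 of its unique molecular identifiers (UMIs, counted RNA molecules), and a nucleus held a median of 821 UMIs, against 1930.5 in the class named pericytes. ATV:BACE1 replicates 1, 4 and 5 gave 42, 19 and 14 nuclei. The same replicates gave 41, 22 and 29 in nonTV:Malat1 and 48, 38 and 11 in OTV:Malat1, and Malat1 ASO replicates 1 and 5 gave 33 each. OTV:Malat1 replicate 5 was thus the smallest library of the class, and the Malat1 fits of OTV:Malat1 in the whole class and between classes are given with and without it. The authors' clustering put 317 of the 330 nuclei into cluster 6, which also holds endothelial cells, pericytes and leptomeningeal cells. Called doublets numbered 7. A barcode that also occurred in another library was carried by 11 of the 330 nuclei (3.33%) and by 3011 of all 110304 nuclei (2.73%), and none was shared within the class.

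To ask which nuclei were smooth muscle and which pericytes, the UMIs of each nucleus were summed over 10 smooth muscle genes and over 10 pericyte genes. A nucleus was led by a list when it held at least 2 UMIs on it and more than on the other list. Pericyte-led nuclei held a median of 7 UMIs on their list, and 105 of the 297 also held a UMI on the smooth muscle list. Smooth muscle-led nuclei held a median of 12, with a range from 2 to 109, and 14 of the 23 also held a pericyte UMI. The share of smooth muscle-led nuclei was 6.97% with an exact binomial 95% interval from 4.47% to 10.3%, which covers counting error only.

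**Figure D1:**
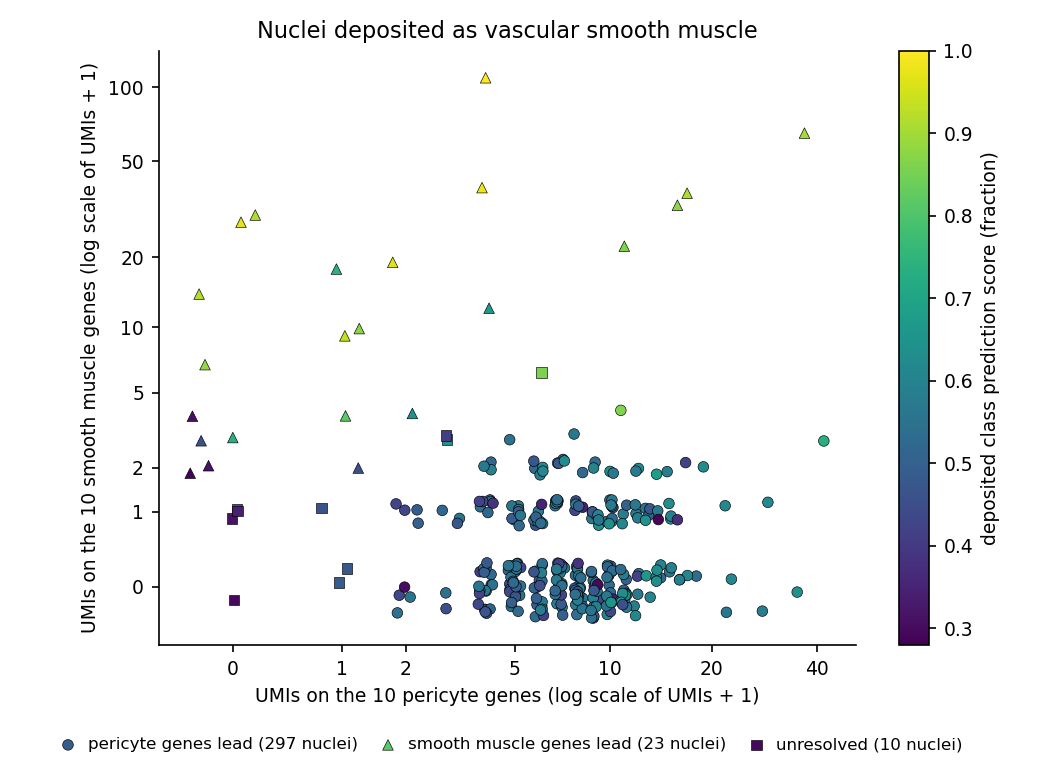
Each symbol is 1 of the 330 nuclei, placed by its UMIs on the 10 pericyte genes (horizontal, log scale of UMIs + 1) and on the 10 smooth muscle genes (vertical, the same scale), with a small random shift so that symbols do not cover each other. Color gives the deposited prediction score; 297 nuclei (circles) lie toward the lower right, led by pericyte genes, and 23 (triangles) lie toward the top and left, among them all 8 nuclei with a score of at least 0.9.

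The deposited score went with the split, with overlapping ranges. Score and split both come from the RNA of the same nuclei, so their match is a description and no independent support. The 23 smooth muscle-led nuclei had a median score of 0.873, and the 297 pericyte-led nuclei had 0.544. All 8 nuclei with a score of at least 0.9 were smooth muscle-led. Of the 95 nuclei with a score under 0.5, 82 were pericyte-led, 5 were smooth muscle-led and 8 were unresolved. Smooth muscle-led nuclei were also deeper, with a median of 1304 UMIs against 800. They were spread over 10 libraries, with 0, 2 and 1 in replicates 1, 4 and 5 of ATV:BACE1, then 1, 1 and 4 in nonTV:Malat1. Malat1 ASO replicates 1 and 5 held 1 and 2, and OTV:Malat1 held 1, 7 and 3. OTV:Malat1 replicate 4 therefore gave 7 of the 23.

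Genes of the contractile apparatus were higher in the 23 smooth muscle-led nuclei. Levels are given in counts per 1000000 UMIs (CPM) of the summed nuclei, and since the split used the genes of the 2 lists, their differences between sets are a description with no test. Acta2 (chr19:34240336-34255585, GRCm38.p6) had 164 UMIs in 21 nuclei of the class. It stood at 2713 CPM in smooth muscle-led nuclei, where 17 of 23 held it, and at 13.9 CPM in pericyte-led nuclei, where 3 of 297 did. Tagln, an actin-binding protein, stood at 1683 CPM and had no UMI in pericyte-led nuclei, at least 161-fold higher against a floor of 3 UMIs over the set. Myh11 stood at 1202 against 34.8 CPM, and the regulatory light chain Myl9 at 961 against 146 CPM. Of genes that the split did not use, tropomyosin 2 (Tpm2) stood at 773 against 10.4 CPM. The ubiquitous regulators of myosin phosphorylation differed less, with Rock1 at 652 against 250 CPM and the myosin phosphatase subunit Ppp1r12a at 790 against 382 CPM. The myocardin gene (Myocd) encodes the coactivator of serum response factor at contractile genes. It is on the smooth muscle list that set the split, and its 11 UMIs in the class were all in smooth muscle-led nuclei.

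Serum response factor binds the CArG box, and the promoters of Acta2 and Myl9 are shown because they are the 2 of the smooth muscle list that held a match to it. They run from 250 bases before the transcription start to 50 after it, from RefSeq on GRCm38.p6. The Acta2 start used in that table lies inside the span of the gene given above, which begins at another start. Acta2 lies on the minus strand (chr19:34255324-34255623) and Myl9 on the plus strand (chr2:156775214-156775513). Capitals mark the CArG box in its strict form or with 1 base of its A and T centre replaced by C or G; both forms read the same on either strand.
Acta2: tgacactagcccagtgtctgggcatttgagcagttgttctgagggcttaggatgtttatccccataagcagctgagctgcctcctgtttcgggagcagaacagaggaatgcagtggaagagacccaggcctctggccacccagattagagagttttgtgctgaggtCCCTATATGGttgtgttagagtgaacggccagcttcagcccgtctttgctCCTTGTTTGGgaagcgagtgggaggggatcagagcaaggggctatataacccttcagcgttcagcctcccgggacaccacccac
Myl9: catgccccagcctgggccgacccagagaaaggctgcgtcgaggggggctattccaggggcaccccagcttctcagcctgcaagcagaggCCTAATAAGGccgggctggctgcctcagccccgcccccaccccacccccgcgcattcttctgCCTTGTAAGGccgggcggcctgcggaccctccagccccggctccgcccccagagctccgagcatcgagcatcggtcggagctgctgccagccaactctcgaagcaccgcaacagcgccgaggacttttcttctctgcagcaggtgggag
The Acta2 promoter held 2 matches of the relaxed form, starting 84 and 34 bases before the start used here, and none of the strict form. The letters tatataa of this window lie after that start, so the distances hold for that start only. The Myl9 promoter held 1 strict match, 161 bases before the start, and 1 relaxed match, 99 bases before it. Of the smooth muscle genes, 7 had a RefSeq promoter and the other 5 of these held no match. None of 12 promoters of 7 pericyte genes held one. Over 32851 mouse promoters of the same length, 9.98% held at least 1 match of either form, 0.822% held at least 2 and 1.63% held a strict match. A match describes the letters of the window and not binding in these nuclei.

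Pericyte genes ran the other way. Atp13a5 (chr16:29230490-29378766) was found in 269 of 297 pericyte-led nuclei at 3528 CPM and in 4 of 23 smooth muscle-led nuclei at 103 CPM. Abcc9 (chr6:142587862-142702766), the sulfonylurea receptor of the channel, stood at 952 CPM with 162 nuclei and had no UMI in the smooth muscle-led set. Its partner Kcnj8 stood at 212 CPM and likewise had none there. After each nucleus was thinned to 500 UMIs to even out depth, Atp13a5 was left in 241 of 297 and 0 of 23 nuclei, and Acta2 in 2 of 297 and 15 of 23. At 500 UMIs a nucleus, 0 of 23 allows up to 13.04% of nuclei with an Atp13a5 UMI, a limit on detection at that depth and not on expression, since 4 of the 23 held one before thinning. The separation was not complete for every gene on the pericyte list: vitronectin (Vtn), a matrix protein made by pericytes, stood at 1582 against 790 CPM, and the amino acid transporter Slc38a11 at 1057 against 343 CPM. Markers common to mural cells were present in both sets. Pdgfrb, the receptor for endothelial PDGF-B, stood at 1123 CPM in pericyte-led and 395 CPM in smooth muscle-led nuclei, Notch3 at 810 and 481 CPM, and the mural signalling regulator Rgs5 at 681 and 1545 CPM.

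**Figure D2:**
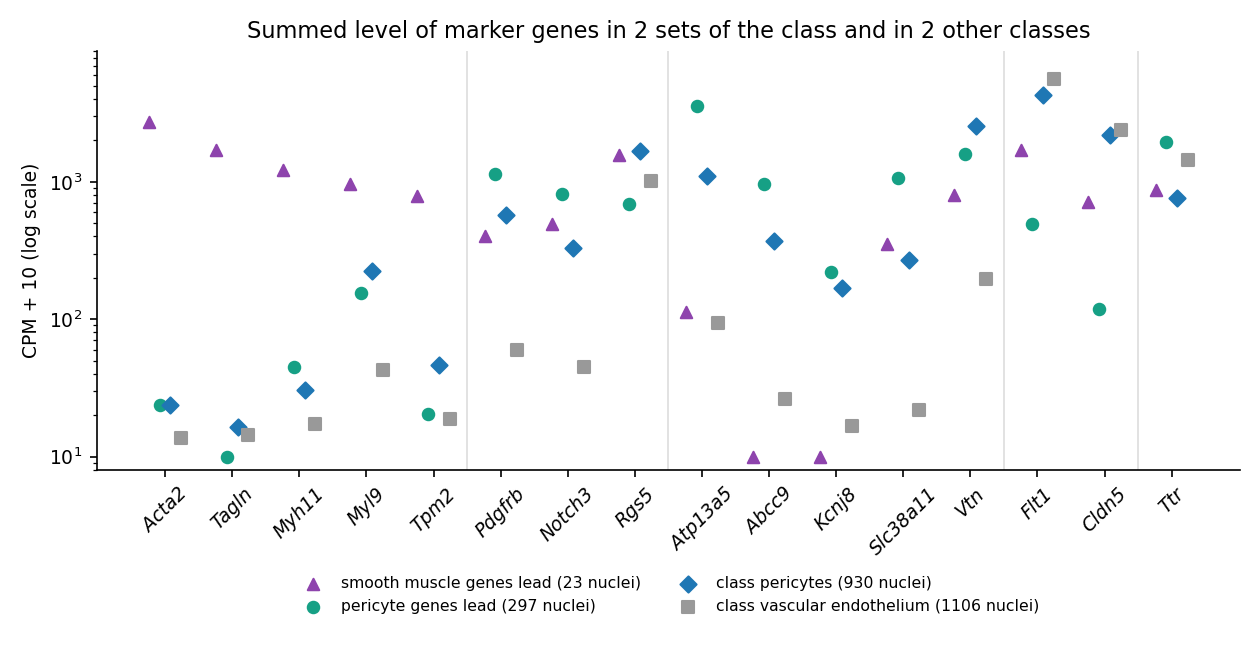
Summed level (CPM + 10, log scale) of 16 genes in smooth muscle-led nuclei (triangles) and pericyte-led nuclei (circles) of the class, and in the deposited classes pericytes (diamonds) and vascular endothelium (squares); a symbol at 10 stands for 0 CPM. Acta2 reads 2713 CPM in the smooth muscle-led nuclei and 13.9 CPM or less in the other 3 sets, while Flt1 and Cldn5 are higher in the class named pericytes than in either set of the class.

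All 1369 genes with at least 50 UMIs in the 2 sets, those of the 2 lists included, were ranked by the ratio of their levels, and genes outside the lists are named here. The set led by smooth muscle genes was higher for the PDGF ligand Pdgfd (807 against 31.3 CPM; 648 CPM in vascular endothelium), the potassium channel subunit Kcnab1 (1064 against 97.3 CPM), the basement membrane protein netrin 4 (Ntn4, 618 against 55.6 CPM) and the matrix protease inhibitor Timp3 (618 against 62.6 CPM). The set led by pericyte genes was higher for the phosphodiesterase Pde8b (3348 against 275 CPM), the metabotropic glutamate receptor Grm3 (2019.7 against 257 CPM), the membrane protein Plxdc2 (2315 against 275 CPM) and the transporter Slc6a20a (1529.5 against 206 CPM). Xist, which silences the inactive X chromosome, was also far apart, in 102 of 297 and 1 of 23 nuclei. The female libraries, replicate 1 of each group, held 40, 40, 32 and 46 pericyte-led nuclei but 0, 1, 1 and 1 smooth muscle-led nuclei in the order ATV:BACE1, nonTV:Malat1, Malat1 ASO and OTV:Malat1. Mecom, Ptprb and Adgrl4, also among the 20 genes highest in the smooth muscle-led set, are on the endothelial list, whose share was higher in that set, and its part in these differences was not tested.

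Against all other nuclei of the series, the class was led by a mixture of the 2 programs. These levels are a description, since the class was assigned from the same RNA. Among 1421 genes with at least 50 UMIs in the class and present in at least 5% of its nuclei, the highest ratios to all other nuclei belonged to Slc38a11 (314-fold), Myh11 (283-fold), the leukotriene receptor Cysltr2 (269-fold), Abcc9 (249-fold), the antisense RNA Tbx3os1 (232-fold) and Acta2 (225-fold). The mural transcription factor Tbx2, the long non-coding RNA Carmn and the angiotensin-cleaving aminopeptidase Enpep were also among the first 20. The class named pericytes came nearer for some of these genes. In this class and in pericytes, Slc38a11 stood at 927 and 261 CPM, Cysltr2 at 169 and 70.3 CPM and Tbx3os1 at 674 and 259 CPM. Myh11 stood at 237 and 20.7 CPM and Acta2 at 462 and 13.5 CPM. Antisense and sense reads cannot be told apart here because strand use in counting was not stated. Of the 10 classes, this one had the highest level of 8 of 10 smooth muscle genes, 8 of 10 shared mural genes and 6 of 10 pericyte genes, and of 0 of 10 endothelial genes. Acta2 was found in 6.36% of its nuclei against 0.503% of oligodendrocytes, and Atp13a5 in 82.7% against 0.482%, at median depths of 821 and 947 UMIs.

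The class named pericytes (930 nuclei) was also mostly led by pericyte genes, in 908 nuclei, and endothelial RNA set the 2 classes apart. Flt1, an endothelial VEGF receptor, stood at 691 CPM in the class, 4281 CPM in pericytes and 5558 CPM in vascular endothelium, and the tight junction gene Cldn5 at 209, 2178 and 2390 CPM. The 10 endothelial genes took 0.178% of UMIs in the class, 1.43% in pericytes and 1.83% in vascular endothelium. Most nuclei of the class (213 of 330) had no endothelial UMI and 29 had 5 or more, while 788 of 930 nuclei named pericytes had 5 or more. Several pericyte and mural genes were higher in the class: Atp13a5 stood at 2878 CPM in the class and 1085 CPM in pericytes, Abcc9 at 775 and 360 CPM, and Pdgfrb at 998 and 564 CPM. Vtn was lower, at 1421 and 2529 CPM. Within the class, endothelial genes took 0.561% of UMIs in smooth muscle-led and 0.0939% in pericyte-led nuclei.

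Markers of other cell types were present at low levels. Neuron genes took 0.168% of UMIs in the class against 0.101% in pericytes and 1.32% in neurons. Oligodendrocyte genes took 0.149% against 0.0642% in pericytes, astrocyte genes 0.119% against 0.0759%, and oligodendrocyte precursor genes 0.0381% against 0.00739%. Precursor genes were found in 42 nuclei, with up to 47 UMIs in 1 of them. The choroid plexus gene Ttr was found in 81.8% of nuclei of the class, but also in 76.0% of neurons and 76.8% of oligodendrocytes. The synaptic gene Snap25 was in 26.7% of nuclei of the class and 24.9% of oligodendrocytes. The leptomeningeal fibroblast list took 0.0741% of UMIs, of which Cped1 gave 159 of 263, while Lum had no UMI and Col1a1 had 6. The macrophage genes Mrc1 and F13a1 came from 1 nucleus with 14 UMIs on that list, a smooth muscle-led nucleus of ATV:BACE1 replicate 4. Microglial genes took 0.0166% of UMIs.

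Channel, nitric oxide and basement membrane genes went both ways between the sets. Levels in this paragraph are CPM in pericyte-led and then smooth muscle-led nuclei, with no test. The sets held 287670 and 58246 UMIs, so low levels in the second rest on few UMIs. For the channels that set membrane potential and calcium entry, the L-type calcium channel Cacna1c stood at 1616 and 1082, the calcium-activated chloride channel Ano1 at 831 and 309, the inositol trisphosphate receptor Itpr2 at 574 and 85.8, and the ryanodine receptor Ryr2 at 55.6 and 240. For the nitric oxide pathway, the guanylate cyclase subunits Gucy1a2 and Gucy1b1 stood at 872 and 429 and at 435 and 155, its kinase Prkg1 at 3348 and 2266, and the cyclic nucleotide phosphodiesterase Pde3a at 327 and 1082. For the basement membrane, the laminin chain Lama2 stood at 1043 and 343, nidogen (Nid1) at 250 and 51.5, and the laminin chain Lamb2 at 24.3 and 292. Nid1 in smooth muscle-led nuclei rested on 3 UMIs, with an exact Poisson 95% interval from 10.6 to 150.5 CPM. Among receptors for vasoactive ligands, the endothelin receptor Ednra stood at 264 and 120, and Agtr1a, Adra1d and Avpr1a had no UMI in the class. The transferrin receptor gene Tfrc, by which TfR-binding carriers enter, had 16 UMIs in the class, 45.1 CPM with an exact Poisson 95% interval from 25.8 to 73.2. It stood at 241 CPM in pericytes and 272 CPM in vascular endothelium; which receptor sequence these UMIs come from in knock-in mice was not analysed here.

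Malat1, the target of the oligonucleotide (chr19:5795690-5802672), did not differ between dosing groups in this class beyond the spread of the libraries. Its share of the UMIs of the class in replicates 1, 4 and 5 was 10.4%, 9.39% and 8.89% for ATV:BACE1. In OTV:Malat1 it was 9.54%, 8.70% and 6.59%. Replicate 1 of OTV:Malat1 lies within the control range, replicate 4 lies just under its lowest library and replicate 5, with 11 nuclei, lies further below. In ATV:BACE1 replicate 4, 2 smooth muscle-led nuclei, 1 of them with macrophage UMIs, held 10688 of the 23742 UMIs of the class. Their Malat1 share was 7.65%, and that of the pericyte-led nuclei of this library was 10.8%. The shares in nonTV:Malat1 were 8.46%, 11.2% and 10.5%, and those in Malat1 ASO replicates 1 and 5 were 10.2% and 9.59%. Both groups overlap the control. The 3 OTV:Malat1 libraries and the 2 Malat1 ASO libraries do not overlap, by 9.54% against 9.59% at the nearest. Means were 9.55% ± 0.752 (SD, n = 3) in ATV:BACE1, 10.03% ± 1.400 (SD, n = 3) in nonTV:Malat1, 9.92% ± 0.468 (SD, n = 2) in Malat1 ASO and 8.28% ± 1.52 (SD, n = 3) in OTV:Malat1, the last being 86.7% of the control mean. With the libraries of a group pooled, the shares were 9.79%, 9.57%, 9.86% and 8.91% in the same order.

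**Figure D3:**
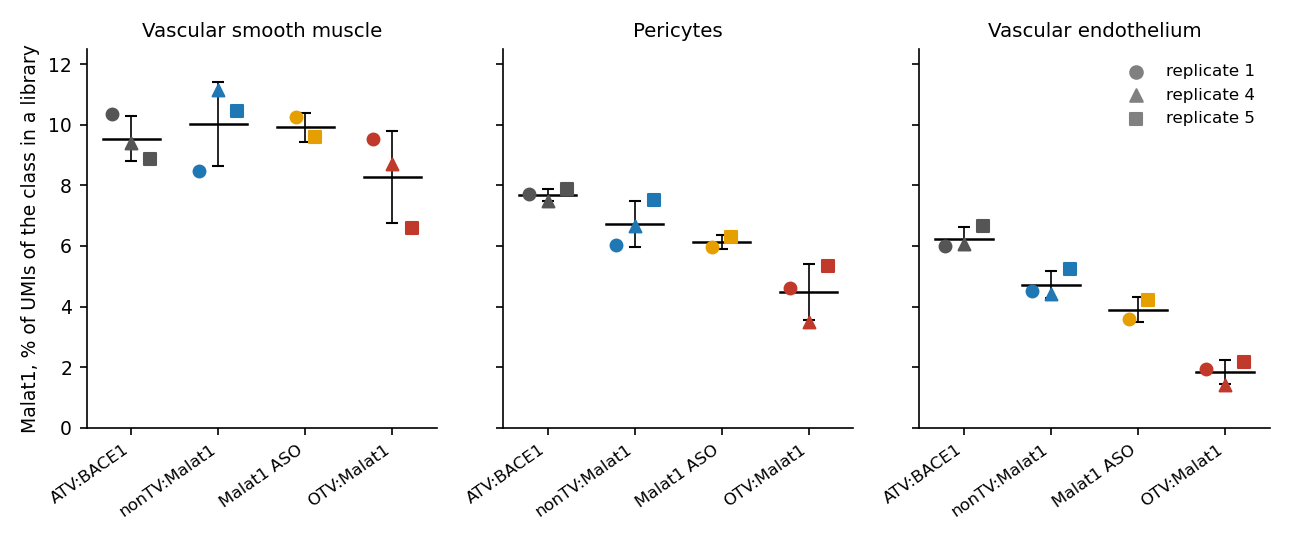
Malat1 as percent of the UMIs of a class in each library (symbols by replicate number), with the group mean (bar) and SD (whisker), in the class named vascular smooth muscle, in pericytes and in vascular endothelium. In vascular smooth muscle OTV:Malat1 spans 6.59% to 9.54% and overlaps the control; in vascular endothelium it spans 1.41% to 2.16%, below every control library.

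In edgeR's quasi-likelihood test on summed counts, Malat1 changed by -0.23 log2 (SE 0.20) in OTV:Malat1 against ATV:BACE1, with unadjusted p = 0.263 and adjusted p = 0.992. The interval of 2 SE to each side ran from -0.64 to 0.17. The exact two-sided permutation test of the 3 library shares against 3 gave p = 0.3, where 0.1 is the smallest possible. Without OTV:Malat1 replicate 5 the edgeR value was -0.05. The values within replicate numbers 1, 4 and 5 were -0.12, -0.11 and -0.43 log2. Against the same control, nonTV:Malat1 differed by 0.11 log2 (SE 0.20) and Malat1 ASO by 0.06 (SE 0.23), with edgeR adjusted p = 0.999 and 1.00. OTV:Malat1 differed from nonTV:Malat1 by -0.34 (edgeR unadjusted p = 0.105, adjusted p = 0.998) and from Malat1 ASO by -0.29 (edgeR unadjusted p = 0.210, adjusted p = 0.999). Without OTV:Malat1 replicate 5 these differences were -0.18 and -0.16. Leaving out each library in turn gave -0.46 to -0.18 against nonTV:Malat1 and -0.41 to -0.16 against Malat1 ASO. The -0.46 was without nonTV:Malat1 replicate 1, with an unadjusted p = 0.0344 and edgeR adjusted p = 1.00. Exact permutation p-values for the 4 contrasts other than OTV:Malat1 with its control were 0.7, 0.6, 0.3 and 0.2, and 0.5 to 0.7 after adjustment over the 5 contrasts. The 3 contrasts with ATV:BACE1 share its libraries. Each replicate is 1 mouse.

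In the other 2 vessel classes the same libraries gave larger differences. OTV:Malat1 stood at 58.4% of the control share in pericytes (4.49% ± 0.927 against 7.69% ± 0.201, SD, n = 3 each) and at 29.4% in vascular endothelium (1.83% ± 0.384 against 6.24% ± 0.378, SD, n = 3 each). The difference between classes was tested in 1 edgeR model with a term for each library. The change in the class was 1.54 log2 (SE 0.36) less negative than in vascular endothelium, with an unadjusted p = 1.24e-04 that did not pass adjustment over 2659 genes (edgeR adjusted p = 0.330). Without OTV:Malat1 replicate 5 the value was 2.04 (edgeR adjusted p = 5.41e-05), and without nonTV:Malat1 replicate 5 it was 1.60 (0.0358), so the call depends on the libraries used. The difference from pericytes was 0.57 log2 (SE 0.40, edgeR adjusted p = 1.00) with an interval of 2 SE to each side from -0.23 to 1.37, and 1.02 without OTV:Malat1 replicate 5 (edgeR adjusted p = 0.252). No gene was called in either model: 0 of 3420 genes (0%) against pericytes and 0 of 2659 genes (0%) against vascular endothelium.

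Taken within libraries, the log2 ratio of the Malat1 share in the class to that in vascular endothelium was 0.79, 0.63 and 0.41 in ATV:BACE1 and 2.30, 2.63 and 1.61 in OTV:Malat1. The groups did not overlap. Permuting the libraries exactly gave p = 0.1, as small as 3 against 3 allows (0.167 adjusted over 5 contrasts). In nonTV:Malat1 the ratios were 0.91, 1.34 and 1.00, and in Malat1 ASO they were 1.51 and 1.19. Both lie above every control library and below every OTV:Malat1 library. The ratio to pericytes was 0.43, 0.33 and 0.17 in ATV:BACE1 and 1.05, 1.31 and 0.30 in OTV:Malat1, which overlap through replicate 5 alone (exact permutation p = 0.3). In nonTV:Malat1 it was 0.49, 0.75 and 0.48, above every control library (exact permutation p = 0.1, 0.5 adjusted over 5 contrasts). In Malat1 ASO it was 0.78 and 0.60, also above every control library (exact permutation p = 0.2, 0.5 adjusted).

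Malat1 shares were also read by the endothelial UMIs of a nucleus. In the class, nuclei with no endothelial UMI had pooled Malat1 shares of 10.5%, 9.75%, 9.99% and 9.54% in ATV:BACE1, nonTV:Malat1, Malat1 ASO and OTV:Malat1. Nuclei with 1 to 4 had 10.5%, 9.69%, 11.97% and 8.20% in the same order, so the share did not go one way from the first bin to the second. Nuclei with 5 or more had 7.82%, 8.90%, 6.98% and 7.01%, from 9, 10, 5 and 5 nuclei, lower in each group than in its other bins. For ATV:BACE1, 3 nuclei of replicate 4 held 11559 of the 19788 UMIs of that bin, at a median of 781 UMIs. In the class named pericytes, nuclei with no endothelial UMI had 9.79%, 11.4%, 11.5% and 9.02% in the same order of groups, from 28, 23, 18 and 34 nuclei. Those with 5 or more had 7.61%, 6.42%, 5.91% and 3.92%, from 229, 228, 145 and 186 nuclei. In that last set the 3 OTV:Malat1 libraries lie between 3.25% and 4.93% and the 3 control libraries between 7.39% and 7.78%. The median depth of nuclei named pericytes was 668 UMIs with no endothelial UMI and 2252.5 UMIs with 5 or more. When the class was refitted on its nuclei without endothelial UMIs, Malat1 differed between OTV:Malat1 and ATV:BACE1 by -0.017 log2 (SE 0.18, edgeR adjusted p = 1.00); OTV:Malat1 replicate 5, with 4 such nuclei, was dropped from that fit. The part of endothelial RNA and of depth in these differences was not tested.

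**Figure D4:**
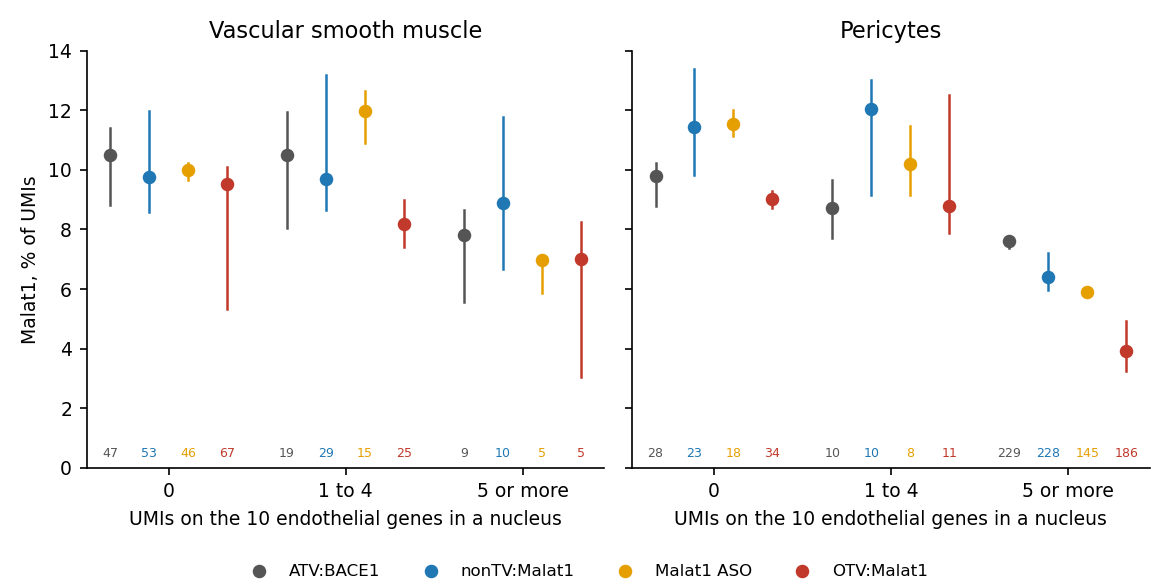
Pooled Malat1 share (percent of UMIs, dots) with the range over libraries (lines) in nuclei binned by their UMIs on the 10 endothelial genes, for the class named vascular smooth muscle (left) and for pericytes (right); numbers above the axis count nuclei. The OTV:Malat1 dot lies at 3.92% in nuclei named pericytes with 5 or more endothelial UMIs and between 7.01% and 9.54% in the bins of the class.

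Per nucleus, with each nucleus thinned to 500 UMIs, Malat1 counts had a median of 50 in ATV:BACE1, 49.5 in nonTV:Malat1, 52.5 in Malat1 ASO and 46 in OTV:Malat1. No nucleus was left out, since the shallowest held 506 UMIs, and no nucleus had 0. A nucleus was called low at 42 or fewer, the lower quartile of the control nuclei. By library, 21.4%, 21.1% and 50% of nuclei were low in ATV:BACE1 and 31.2%, 47.4% and 81.8% in OTV:Malat1, the last being 9 of 11 nuclei. The libraries overlap, while within each replicate number the share was higher in OTV:Malat1. In nonTV:Malat1 51.2%, 13.6% and 20.7% were low, and in Malat1 ASO 30.3% and 36.4%. Thinned to 1000 UMIs, which keeps 17 control and 35 OTV:Malat1 nuclei, pooled low shares were 29.4% and 42.9%, against 26.7% and 43.3% at 500.

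The 2 sets within the class can be compared only by description. Pericyte-led nuclei had pooled Malat1 shares of 10.3%, 9.21%, 9.71% and 9.11% in ATV:BACE1, nonTV:Malat1, Malat1 ASO and OTV:Malat1, from 69, 83, 62 and 83 nuclei. By library they were 10.4%, 10.8% and 9.08% in ATV:BACE1 and 9.83%, 8.34% and 6.64% in OTV:Malat1. The groups overlap through ATV:BACE1 replicate 5 alone, and not when replicate 5 of both is left out. Within each replicate number OTV:Malat1 was the lower. On these nuclei edgeR gave -0.34 log2 (SE 0.20, adjusted p = 0.997), with replicate 5 included at 8 nuclei. Smooth muscle-led nuclei numbered 3, 6, 3 and 11, with pooled shares of 7.89%, 12.9%, 10.9% and 8.28%. Of the 3 in ATV:BACE1, the 2 from replicate 4 held 10688 of 14709 UMIs, and 1 of these 2 held macrophage UMIs. The lowest thinned counts of all 330 nuclei, under 20, were in 4 nuclei of OTV:Malat1, 3 of them smooth muscle-led. The lowest, at 6, rested on 2 smooth muscle UMIs beside 19 endothelial UMIs and had a score of 0.316. The others that smooth muscle genes led had counts of 14, with 3 smooth muscle UMIs and a score of 0.457, and 16, with 19 smooth muscle UMIs, 1 endothelial UMI and a score of 0.965. The other smooth muscle-led nuclei of OTV:Malat1 reached up to 71, so the set was mixed, and ATV:BACE1 had only 3 nuclei to set beside it.

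**Figure D5:**
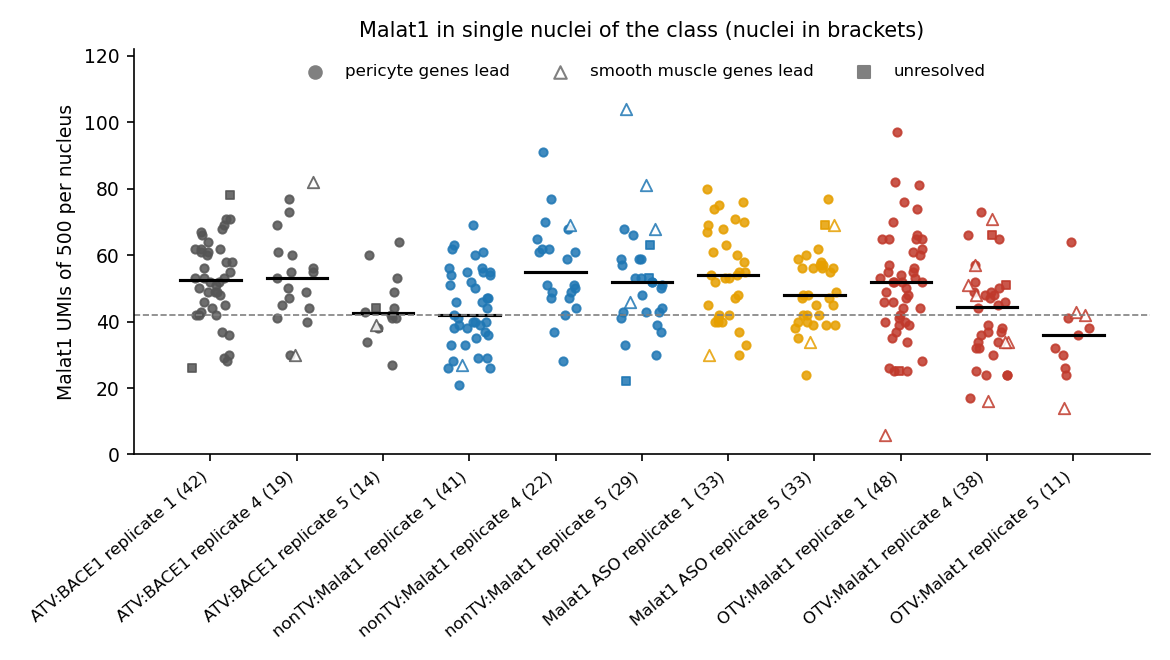
Malat1 UMIs in each nucleus of the class after thinning to 500 UMIs, by library, with the median (bar) and the count of 42 at or under which a nucleus was called low (dashed line). Filled circles are pericyte-led, open triangles smooth muscle-led and squares unresolved nuclei; medians run from 36 in OTV:Malat1 replicate 5 to 55 in nonTV:Malat1 replicate 4.

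For other genes, summed counts allowed 766 to be tested, and none was called by edgeR at an adjusted p under 0.05 in OTV:Malat1 against ATV:BACE1 (0%), nonTV:Malat1 against ATV:BACE1 (0%), Malat1 ASO against ATV:BACE1 (0%), OTV:Malat1 against nonTV:Malat1 (0%) or OTV:Malat1 against Malat1 ASO (0%). At an unadjusted p under 0.05, edgeR had 26, 27, 34, 13 and 11 genes in these contrasts. DESeq2 was run without the filter on low counts, so on more genes than the 766. It also called 0 in each contrast. Its 60, 62, 87, 47 and 41 genes at an unadjusted p under 0.05 are not counts out of 766 and cannot be set against those of edgeR. The values that follow are therefore not changes past a threshold. Libraries that do not overlap were common. Against ATV:BACE1, of 766 genes, 42 were higher and 25 lower without overlap in nonTV:Malat1, and 70 and 76 in Malat1 ASO, which has 2 libraries. For OTV:Malat1 the counts were 25 and 28 against nonTV:Malat1 and 58 and 64 against Malat1 ASO. In OTV:Malat1 against ATV:BACE1, the libraries of the groups did not overlap for 34 genes that were higher (4.44%) and 33 that were lower (4.31%).

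The genes of smallest p among these were, on the higher side, the small GTPase Rap1a and the synaptic scaffold genes Dlgap1 and Magi2. Rap1a had 135, 84.2 and 150.03 CPM in the 3 ATV:BACE1 libraries, against 466, 393 and 316 CPM in OTV:Malat1, 1.69 log2 (SE 0.51, edgeR adjusted p = 0.992). Its levels in nonTV:Malat1, 242, 317 and 252 CPM, and in Malat1 ASO, 320 and 183 CPM, also lay above every control library. Dlgap1 was likewise above the control in all 3 contrasts with it, by 2.62, 2.43 and 2.70 log2 in OTV:Malat1, nonTV:Malat1 and Malat1 ASO, which share the control libraries. The control libraries together held 4 UMIs of Dlgap1 and 9 of Rap1a, so both genes rest on few UMIs there. Of the 99 Dlgap1 UMIs of the class, 13 came from 1 nucleus. Rap1a had 98 UMIs in 77 nuclei and at most 4 in any, so it did not come from a few nuclei. On the lower side were the tetraspanin Cd81, the actin-binding protein Nebl and Vtn. Nebl rested on 91 UMIs in 32 nuclei, 22 of them from 1 nucleus, and of the 10 classes its level was highest in vascular endothelium, at 1104 CPM. The pooled share of endothelial genes among UMIs of the class was 0.271% for ATV:BACE1 and 0.162% for OTV:Malat1. By replicates 1, 4 and 5 it was 0.0968%, 0.505% and 0.338% in ATV:BACE1 and 0.0816%, 0.230% and 0.253% in OTV:Malat1. Nebl had 646, 505 and 525 CPM in these ATV:BACE1 libraries and 19.4, 290 and 211 CPM in those of OTV:Malat1. Replicate 1 of ATV:BACE1 thus had the lowest endothelial share of its group but the highest Nebl level. Replicate 1 of OTV:Malat1 was the lowest of its group in both. The part of endothelial genes in the Nebl difference was not tested. Vtn had 1426, 1390 and 2175 CPM in ATV:BACE1 and 1088, 848 and 421 CPM in OTV:Malat1, -0.96 log2 (SE 0.40, edgeR adjusted p = 0.992). The level in OTV:Malat1 replicate 5 rests on 4 UMIs, and replicates 1 and 4 also lie under the lowest control library. Its levels in nonTV:Malat1 were 1190, 2269 and 1800 CPM and in Malat1 ASO 2686 and 1191 CPM. Vtn was also among the 3 lower genes of smallest p without overlap against nonTV:Malat1 (-1.08 log2) and against Malat1 ASO (-1.18 log2), but these contrasts share the OTV:Malat1 libraries. Vtn is on the list that set the split, and 11 of 97 nuclei of OTV:Malat1 were smooth muscle-led against 3 of 75 of ATV:BACE1; their part in the Vtn values was not tested.

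Against the control, the genes of smallest p without overlap in nonTV:Malat1 included the cation channel Trpm3 (3.93 log2, SE 0.89, edgeR adjusted p = 0.201) and the sarcoglycan Sgcd (4.64 log2, SE 1.21, edgeR adjusted p = 0.390). Trpm3 had 26.9, 42.1 and 75.01 CPM in ATV:BACE1, 605, 106 and 1188 CPM in nonTV:Malat1, 480 and 321 CPM in Malat1 ASO and 58.3, 269 and 0 CPM in OTV:Malat1. It rested on 113 UMIs in 28 nuclei, 23 of them from 1 nucleus, and Sgcd on 66 UMIs in 20 nuclei, 29 of them from 1. The 3 control libraries together held 3 UMIs of Trpm3 and 1 of Sgcd, and nonTV:Malat1 replicate 4 held 2 and 1, so both values rest on very few UMIs in the control. In the same contrast the 2 tested oligodendrocyte precursor genes had a median of 2.69 log2 and the 2 tested astrocyte genes 1.29. Precursor genes took 0.0108% of UMIs in ATV:BACE1 and 0.0706% in nonTV:Malat1, and astrocyte genes 0.0835% and 0.172%; their part in the Trpm3 and Sgcd values was not tested. Trpm3 and Sgcd passed the threshold in some alternatives, given with the processing. In Malat1 ASO against the control, the smallest p among genes with no overlap belonged to Csmd1, a synaptic complement regulator (2.20 log2, SE 0.59, edgeR adjusted p = 0.902). Of 766 genes, 70 were higher without overlap in that contrast. Neuron genes took 0.148% of UMIs in ATV:BACE1 (0.139% to 0.158% by library) and 0.259% in Malat1 ASO. The 2 Malat1 ASO libraries had 0.134% and 0.348%, the first under every control library, while Csmd1 had 799 and 641 CPM in replicates 1 and 5. Of 3 tested neuron genes, 2 had positive values, and Snap25 was lower without overlap, beside 76 of all 766 genes. The 2 precursor genes had a median of 2.37 log2 there. The part of neuron and precursor genes in the Csmd1 value was not tested.

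The genes of the mural and vessel lists gave no call. Of 225 genes on 12 marker and 12 pathway lists, 82 passed the filter on low counts, and none passed the test in either direction in the 5 contrasts, as for all genes. In OTV:Malat1 against ATV:BACE1, 5 of 5 tested smooth muscle genes had positive values (median 0.20 log2), 5 of 6 pericyte genes had negative values (median -0.33) and 4 of 4 endothelial genes had negative values (median -0.73), beside a median of -0.01 over the 766 genes. Markers of other cells went both ways. Values were positive in 2 of 2 oligodendrocyte precursor genes (median 1.89), 4 of 4 oligodendrocyte genes (0.43) and 2 of 3 neuron genes (0.09). They were also positive in 1 of 2 astrocyte genes and in Cped1 (0.18). The other neuron gene, Snap25, was lower without overlap, beside 4.31% of all genes on that side, and Ttr had a negative value (-0.46). The part of these markers in the genes named was not tested. Against the same control the 5 smooth muscle genes had negative values in nonTV:Malat1 (median -0.63) and in Malat1 ASO (median -1.38), and these contrasts share the control libraries. Acta2 had 26.9, 1137 and 525 CPM in replicates 1, 4 and 5 of ATV:BACE1 and 19.4, 1841 and 527 CPM in those of OTV:Malat1, where replicate 4 held 7 smooth muscle-led nuclei. Replicate 4 was thus the highest of both groups. Acta2 was listed at 0 in replicate 1 of nonTV:Malat1 and of Malat1 ASO. Of 4 further pathway lists, 10 genes of 13 for nitric oxide and cyclic nucleotides, 8 of 16 channels, 7 of 15 basement membrane genes and 2 of 14 Notch genes were tested, with medians of 0.10, -0.04, -0.37 and 0.10 log2. Col4a2, a collagen chain, was the 1 of 7 tested basement membrane genes whose libraries did not overlap (-1.47 log2, SE 0.63, edgeR adjusted p = 0.992), beside 4.31% of all genes on the lower side and 4.44% on the higher. Col4a2 was also lower than the control without overlap in nonTV:Malat1 and in Malat1 ASO, beside 25 and 76 of all 766 genes. These 3 contrasts share the control libraries. Pdgfrb differed by -0.02 log2 (SE 0.34), Atp13a5 by -0.29 (SE 0.31) and Abcc9 by -0.75 (SE 0.46), each with edgeR adjusted p = 0.992. Of the 6 tested pericyte genes, 2, Vtn and Atp13a5, were lower in OTV:Malat1 without overlap in TMM-scaled levels and 0 were higher, beside 4.31% and 4.44% of all genes. Without TMM the Atp13a5 libraries overlap, with 3151 CPM in ATV:BACE1 replicate 5 and 3168 CPM in OTV:Malat1 replicate 1.

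The share of the class among all nuclei of a library did not differ beyond the spread either. In replicates 1, 4 and 5 it was 0.366%, 0.191% and 0.145% for ATV:BACE1, beside 0.455%, 0.504% and 0.0795% for OTV:Malat1. OTV:Malat1 thus held both the highest and the lowest share. In nonTV:Malat1 it was 0.424%, 0.261% and 0.301%, and in Malat1 ASO 0.359% and 0.319%. Means were 0.234% ± 0.117, 0.329% ± 0.0855, 0.339% ± 0.0285 and 0.346% ± 0.232 (SD) in ATV:BACE1, nonTV:Malat1, Malat1 ASO and OTV:Malat1. Exact permutation tests gave p = 0.5, 0.3 and 0.6 for OTV:Malat1, nonTV:Malat1 and Malat1 ASO against the control.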

How the data were processed

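Nuclei came from the brains of 11 mice, 1 library each. The authors' deposited matrix holds UMI counts per gene symbol and nucleus, without normalization. Cell Ranger 5.0.0, Seurat 4 and mm10 are named, per the submitters' processing notes, without their roles. Column sums equalled the deposited total count in 110304 of 110304 nuclei. The authors' metadata give, for each nucleus, a class, a prediction score deposited as a fraction, a doublet call with a score deposited as a fraction, a cluster, a batch, and a mitochondrial share deposited as a percent. Genes carry symbols only. Strand use in counting is not given in the sources used here. How nuclei and doublets were filtered before deposit is not given there either, and doublet calls were kept and left out as an alternative.

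The class, the members and the gene lists were chosen with earlier results of these data known, so no list count is independent support. Counts were summed over the nuclei of the class in each library with at least 10 nuclei, which all 11 libraries had, and tested with edgeR 4.0.16 (glmQLFit, glmQLFTest, TMM, filterByExpr by group) in R 4.3.3, all 4 groups in 1 fit. Benjamini-Hochberg adjustment ran over all genes of a fit, with a threshold of 0.05. The difference between classes was the class by group term of an edgeR model with a term per library. Library values were compared by exact two-sided permutation tests (scipy 1.17.1). Python 3.11.15 with numpy 2.4.6, pandas 2.3.3 and matplotlib 3.10.9 did the rest. The tests were tested on simulated data with planted changes larger than the Malat1 differences between groups in the class, so the power to find differences of that size was not measured. Thinning drew 500 UMIs per nucleus without replacement (seed 1).

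Beside Malat1, the 4 given markers and the list genes, the text names genes by these rules: the first 20 by ratio to all other nuclei, the first 20 at each end of the split, and in each contrast the called genes or, with none called, the 3 higher and 3 lower genes of smallest p whose libraries do not overlap. Tpm2 and other list genes were picked to show a role. Some genes are not reported here.

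Alternatives were DESeq2 1.42.0 (without the filter on low counts), total counts without TMM, no filter on low counts, a replicate block, minima of 1 and 20 nuclei, doublets left out, scores of at least 0.5, nuclei of at least 1000 UMIs, Malat1 left out of library size, and each library left out. Nuclei without endothelial UMIs and pericyte-led nuclei were alternatives chosen after the data were seen, with a minimum of 5 nuclei.

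Replicate numbers 1, 4 and 5 coincide with the deposited batch column. Over 765 genes, centred within groups, libraries of the same number had r from -0.03 to 0.34 (median 0.18, 15 pairs) and libraries of different numbers from -0.37 to 0.23 (median -0.10, 30 pairs); centring ties these values to each other. Library totals of the class were 9494 to 51448 UMIs, and exact binomial and Poisson intervals cover counting error only. Intervals of 2 SE come from the edgeR fit and include the spread between libraries. The number of mice, 2 or 3 a group, limits the precision. Promoters and positions are RefSeq's on GRCm38.p6.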

Additional observations from a re-analysis of the deposited data

How the results depend on the processing

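Malat1 in OTV:Malat1 against ATV:BACE1 kept its negative sign without passing the threshold in all 24 alternatives run, from -0.35 to -0.017 log2, with adjusted p from 0.953 to 1.00. With a replicate block it was -0.24 (edgeR adjusted p = 0.958), and the block changed no call of Malat1 and no count of called genes in the full class. With a minimum of 20 nuclei, which leaves ATV:BACE1 1 library assumed to vary like the others, the value turned to -0.071 for nonTV:Malat1 and to -0.097 for Malat1 ASO against the control; without endothelial UMIs it was -0.0088 for Malat1 ASO. The cause was not tested.

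The difference of the Malat1 change from vascular endothelium passed the threshold in edgeR with total counts without TMM (1.57 log2, adjusted p = 0.00606) and with no filter on low counts (1.60, 0.00366). With a minimum of 20 nuclei it was 1.79, but that fit leaves ATV:BACE1 1 library and drops OTV:Malat1 replicate 5. Leaving out each library gave 1.23 to 2.04, past the threshold without OTV:Malat1 replicate 5 or nonTV:Malat1 replicate 5. The other 11 alternatives gave adjusted p from 0.147 to 0.975. The difference from pericytes passed in none of 16, and leaving out each library gave 0.26 to 1.02.

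Genes were called in 3 contrasts under some alternatives. For nonTV:Malat1 against ATV:BACE1 the count was 2, Trpm3 and Sgcd, with no filter, 1, Trpm3, in pericyte-led nuclei with a replicate block, and 0 to 2 without each library. For OTV:Malat1 against nonTV:Malat1 it was 1, Trpm3, in pericyte-led nuclei, with and without the block (adjusted p = 0.0431 and 0.0484). For OTV:Malat1 against ATV:BACE1 leaving out each library gave 0 to 1, which was Pde4b without ATV:BACE1 replicate 1. The share of the class in OTV:Malat1 less that in Malat1 ASO, 0.0067 percentage points, turned to -0.0042 with doublets left out and to -0.0077 at scores of at least 0.5. Smooth muscle-led nuclei made up 5.45% to 7.88% under 4 other settings of the split, and the low share in OTV:Malat1 exceeded that in the control by 10.9 to 28.4 points. Depth limits what can be tested: 766 genes passed the filter, from a median of 821 UMIs a nucleus.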

Other observations

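Other nuclear long non-coding RNAs were read in the same nuclei. Carmn, a smooth muscle and pericyte RNA that hosts microRNAs, stood at 375 CPM in the class, 141 CPM in pericytes and 10.2 CPM in vascular endothelium, and within the class at 403 CPM in pericyte-led and 257 CPM in smooth muscle-led nuclei. Neat1, which builds paraspeckles and lies next to Malat1, stood at 231 CPM in the class and 337 CPM in vascular endothelium. It differed by 0.31 log2 (SE 0.77, edgeR adjusted p = 0.992) between OTV:Malat1 and ATV:BACE1. Meg3 had 646, 632 and 675 CPM in ATV:BACE1 and 836, 1324 and 1369 CPM in OTV:Malat1 replicates 1, 4 and 5, which do not overlap. The difference was 0.79 log2 (SE 0.38) and was not called (edgeR adjusted p = 0.992), and 4.44% of all genes were higher without overlap in that contrast. In nonTV:Malat1 Meg3 had 787, 686 and 972 CPM, also above every control library (0.37 log2, SE 0.38, edgeR adjusted p = 0.999). Of 766 genes, 42 were higher without overlap there. Meg3 stood at 6807 CPM over all other nuclei of the series, and neuron genes took 0.148% of UMIs of the class in ATV:BACE1 and 0.161% in OTV:Malat1.

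Solute carriers are given for the 2 sets with no test. The smooth muscle-led set held 58246 UMIs and the pericyte-led set 287670, so low levels in the first rest on few UMIs. The chloride cotransporter Slc12a2 stood at 483 CPM in pericyte-led and 120 CPM in smooth muscle-led nuclei, the creatine transporter Slc16a12 at 323 and 85.8 CPM, and the manganese exporter Slc30a10 at 233 and 34.3 CPM. The taurine transporter Slc6a6 went the other way, at 86.9 and 652 CPM. It stood at 1335 CPM in vascular endothelium, and endothelial genes took 0.0939% and 0.561% of UMIs in the 2 sets. Their part was not tested. The organic anion transporter Slc22a8 was higher in the class named pericytes, at 301 CPM, than in this class, at 141 CPM. None of the 5 solute carriers tested was called in any contrast by edgeR. The 10 unresolved nuclei had a median score of 0.461 and a pooled Malat1 share of 9.47%.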
